A study of Homo sapiens with 6 samples.

Results

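The ubiquitin conjugating enzymes (E2), ubiquitin ligases and ligase adaptors (E3) and ubiquitin-specific proteases were followed through the mRNA half-lives and RNA levels of HEK293 cells, a human embryonic kidney cell line, with and without depletion of MOV10. Genes were taken by symbol: names that begin with UBE2 make up the E2 class (UBE2M and UBE2MP1 were left out by the rule), names in RNF, TRIM, FBXL, FBXO, FBXW, CUL or KLHL followed by their number or letter make up the E3 class, and names in USP followed by a number make up the protease class. Of the 7682 genes measured, 191 were members: 23 E2, 134 E3 and 34 protease genes. A mean total RNA value of at least 5 in both conditions was required for testing, and 150 of the 191 members (78.5%) met it, against 6064 of all 7682 genes. These were all 23 E2 genes, 98 E3 genes (33 RNF, 20 TRIM, 11 FBXL, 17 FBXO, 5 FBXW, 5 CUL and 7 KLHL) and 29 protease genes. UBE2V1 and UBE2V2, which resemble E2 enzymes but lack the catalytic cysteine, share the symbols of the E2 class only, and UBE2F conjugates NEDD8 rather than ubiquitin. In the protease class USP6NL is a GTPase-activating protein and USP39 a splicing factor without protease activity.

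Both groups were HEK293 cultures given 4-thiouridine (4sU, a uridine analogue that marks RNA made during the pulse) at 700 µM for 60 min. One group was mock transfected and the other was transfected with an siRNA against MOV10, an RNA helicase that binds mRNA 3′ untranslated regions (UTRs). From each group total RNA, the 4sU-labelled RNA bound to streptavidin, and the unbound flow-through RNA were sequenced as poly(A)+ libraries. Each of the 6 samples listed has 2 replicate columns, and half-lives are given for 2 mock and 2 siRNA columns; nothing says that the columns came from separate cultures, so the p-values measure only the spread between columns, which may be technical. The reference is a mock transfection, so effects of transfecting any siRNA cannot be told apart from those of losing MOV10, and the siRNA sequence and the time after transfection are not given in the sources used here.

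Ubiquitin is attached to proteins by a relay: an E1 enzyme activates it, an E2 enzyme carries it as a thioester, and an E3 ligase brings the charged E2 to the substrate. Most RNF and TRIM proteins carry a RING domain that binds the E2 directly. Cullins are scaffolds of larger ligases, in which F-box proteins (FBXL, FBXO, FBXW) pick the substrates of CUL1 and BTB-Kelch proteins (KLHL) those of CUL3. Ubiquitin-specific proteases (USP) cleave ubiquitin from substrates and trim chains. Ubiquitin chains mark proteins for the proteasome, and other chain types act in DNA repair, endocytosis and signalling.

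The siRNA lowered its target in both columns. MOV10 total RNA read 13.1 and 14.6 in mock columns, then 3.53 and 3.64 after the siRNA, a 3.86-fold lower mean. Values are normalised expression in a unit that is not named, so genes are not ranked by level and depth is unknown. The libraries are bulk and of a kind that does not mark strand: a change in every cell and a change in some cells cannot be told apart, nor can reads of overlapping antisense genes, and members with near-identical copies, such as UBE2V1, are less certain. Deposited half-lives were long throughout in siRNA replicate 2, with a median over the tested genes of 1029.6 min. It was 742, 809.6 and 764 min in mock replicates 1 and 2 and siRNA replicate 1. Changes are therefore given relative to the median gene of each column. Without that centring the median of all genes would move by 0.20 (log2) in half-life, 0.14 in labelled RNA, -0.0084 in total RNA and 0.017 in flow-through RNA. Half-lives recomputed from the deposited RNA values, over all 7682 genes, did not show siRNA replicate 2 as long. Its recomputed median was the shortest, 504 min, against 553, 583 and 537 min in mock replicates 1 and 2 and siRNA replicate 1. The cause of this difference was not tested. Of 16 marker genes of blood, liver, muscle, fibroblasts and endothelium, 1 was listed (HBA1, total RNA 14.5 to 19.1 over the 4 columns), and 3 of 8 genes known to be high in HEK293 cells (NEFL, CDH2 and VIM) were listed.

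Among the genes past the minimum of 5, the median mRNA of the ubiquitin system was shorter-lived in mock cells than the median gene. The median of the mean mock half-life was 656 min over the 150 members and 777 min over all tested genes, and 94 of the 150 members lay below the latter. The classes had similar medians, 657 min for E2, 649 min for E3 and 666 min for protease genes, but the E3 class reached further down: its quartiles were 275 and 896 min, against 512 and 920.4 min for E2 and 509 and 866 min for protease genes. Half-lives under 300 min were found for 26 of 98 E3 genes (26.5%), 1 of 23 E2 genes and 2 of 29 protease genes, and for 14.3% of all tested genes. Within the E3 class the F-box only family FBXO had the shortest median, 404 min, followed by TRIM (585 min), FBXL (604 min), RNF (664 min), FBXW (780.4 min), KLHL (782 min) and the 5 cullins (908 min). These are descriptions of genes in the same cells and no test was made between families. The E3 and protease medians moved with the minimum, as given at the end. Whether the order against all genes holds at another minimum is not given here.

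**Figure D1:**
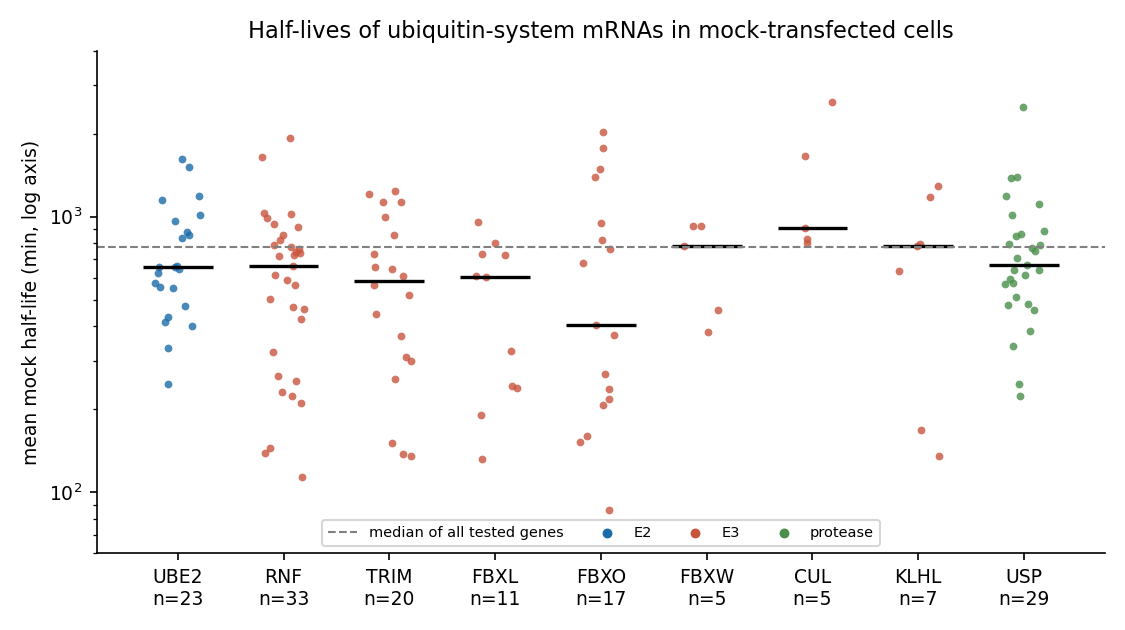
Mean mock half-life of each tested member (points; log axis, min) by family, with the median of each family as a bar and the median of all tested genes as a dashed line. The FBXO genes reach lowest and the cullins sit above the line at their median of 908 min.

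The shortest mock half-lives among the E3 genes were those of FBXO5, which encodes the anaphase-promoting complex inhibitor EMI1 (85.5 and 87.1 min in the 2 mock columns), and RNF113A, a RING protein of the spliceosome (107 and 119 min). The longest were those of CUL4A, scaffold of the DDB1-containing ligases (2548 and 2683 min), and FBXO18, the DNA helicase FBH1 (1952 and 2099.5 min). Among E2 genes UBE2W, which modifies protein N-termini, was shortest (262 and 233 min), then UBE2Q2 (302 and 366 min), while UBE2A, the RAD6 homologue, was longest (1580.4 and 1659 min), then UBE2G2, an E2 of endoplasmic reticulum-associated degradation (1443 and 1581 min). Among protease genes the shortest were USP38 (222 and 226 min) and USP6NL (248 and 246 min), and the longest USP11 (2454 and 2554 min) and USP16, a histone H2A deubiquitinase (1366 and 1415 min). The 2 mock columns thus differed far less than the genes did.

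After the siRNA, few of these mRNAs passed the test for a change in half-life, and the class medians stayed close to that of all genes. By limma with Benjamini-Hochberg adjustment over all 6064 genes, half-life fell in 5 of 150 members (3.33%; background over all tested genes 4.27%) and rose in 6 (4%; background 1.88%). The fallers were the E3 genes RNF6, CUL4A and KLHL8 and the protease genes USP12 and USP22; the risers were the E3 genes RNF4, RNF138, RNF139, FBXO8 and KLHL12 and the E2 gene UBE2Z. No E2 gene fell by limma (0 at an unadjusted p under 0.05, 0 without the trend in the variance) and no protease gene rose (4 at an unadjusted p, 0 without the trend). Median log2 changes were 0.032 for E2, 0.011 for E3 and -0.0028 for protease genes, beside 0.0026 for all tested genes. Relative to the median gene, the siRNA columns did not overlap the mock columns and were lower in 35 members (23.3%, background 27.3%) and higher in 46 (30.7%, background 28.5%). None of the 20 TRIM, 11 FBXL or 5 FBXW genes passed the test; at an unadjusted p, 4 TRIM genes were lower and 2 higher, 1 FBXL gene was lower and 1 higher, and 0 FBXW genes were lower or higher, and limma without the trend called none either. FBXL15 did pass, lower, without mock replicate 2 and with recomputed half-lives, and with the latter 1 other FBXL gene passed as higher.

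**Figure D2:**
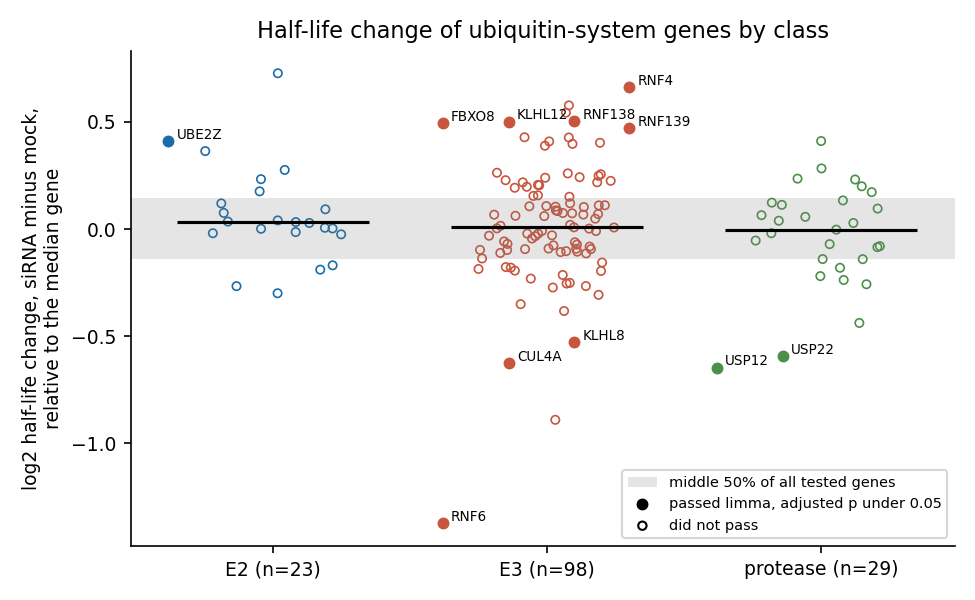
log2 half-life change (siRNA minus mock, relative to the median gene) of each tested member by class; filled points passed limma at an adjusted p under 0.05, bars are class medians and the grey band is the middle 50% of all tested genes. RNF6 at -1.37 stands lowest, and the medians of the 3 classes lie inside the band.

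The stability calls rest on few columns. RNF6 kept its call when any 1 of the 4 columns was left out (highest adjusted p = 0.0256). USP12 lost it without either mock column (up to 0.083), RNF4 and USP22 without either mock column or siRNA replicate 1 (up to 0.0902 and 0.102), and KLHL8 and KLHL12 without either mock column or siRNA replicate 2 (up to 0.161 and 0.172). CUL4A, RNF138, RNF139, FBXO8 and UBE2Z lost it in each of the 4 cases (up to 0.122, 0.168, 0.195, 0.168 and 0.194). The direction held in all of these, and the count of members called ranged from 1 to 3 lower and 0 to 3 higher. Without centring, 0 members were called in either direction by limma (2 lower and 14 higher at an unadjusted p; 7 of all tested genes were called), and all 11 calls were kept with half-lives recomputed from the deposited RNA values.

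The 7-base sequence TACTGCA in the 3′ UTR was set against the changes, since earlier results on these same data had linked it to shortened half-lives; it is therefore no independent evidence here. It was searched on the transcript strand of the longest annotated 3′ UTR of each gene (GENCODE, GRCh38), as the letters alone. It occurred in 23 of the 148 members for which a 3′ UTR was found (15.5%) and in 665 of 5664 tested genes (11.7%). For FBXL21 and FBXO18 the search of the annotation by symbol returned no 3′ UTR, which does not show that they lack one. Carriers had longer 3′ UTRs, with a median of 3295 bases against 1644 in members without it, and the part of UTR length was not tested. By class, 6 of 23 E2, 13 of 96 E3 and 4 of 29 protease genes carried it. The sites below are shown because their genes passed in total RNA, the first 5 lower and the last 3 higher (UBE2W, another carrier that rose, is named only); capitals mark TACTGCA and the DNA letters run 5′ to 3′ along the transcript.
RNF6: ttttgggctaaTACTGCAtatggcacaat
KLHL8: tcaacacttttTACTGCAactagagtctt
UBE2G2: tattgacagctTACTGCAgttttacagta
UBE2G1: ctattcttctaTACTGCAgatttttctca
UBE2D3: ggtagatgtcaTACTGCAtaacttttttg
RNF11: tagcaaaaggaTACTGCAtctctcattac
RNF41: gtagctggggcTACTGCAcctggaattgt
USP8: aataaaaataaTACTGCAgaacaacagag

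Coordinates span each printed stretch, with 11 bases on either side of TACTGCA. Base numbers give where TACTGCA itself begins. The RNF6 stretch lies at chr13:26213212-26213240 (minus strand), with TACTGCA from base 595 of 1062 in the 3′ UTR, in GRCh38. That of KLHL8 lies at chr4:87163413-87163441 (minus strand), from base 89 of 3416 in the 3′ UTR. The E2 sites lie at chr21:44771156-44771184 (minus strand), from base 204 of 2797 in the 3′ UTR, for UBE2G2, at chr17:4271536-4271564 (minus strand), from base 1001 of 3295 in the 3′ UTR, for UBE2G1, and at chr4:102795472-102795500 (minus strand), from base 1926 of 3032 in the 3′ UTR, for UBE2D3. Those of the genes that rose lie at chr1:51272313-51272341 (plus strand), from base 1002 of 2133 in the 3′ UTR, for RNF11, at chr12:56202228-56202256 (minus strand), from base 4202 of 4272 in the 3′ UTR, for RNF41, and at chr15:50505228-50505256 (plus strand), from base 6151 of 15331 in the 3′ UTR, for USP8. Each lies within 1 exon, in a 3′ UTR.

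The RING ligase RNF6, which is known to ubiquitinate the androgen receptor, had the largest loss of stability, and its 3′ UTR holds 1 of the sites above. Its half-life was 261 and 244 min without and 91.9 and 136 min with the siRNA, so the siRNA columns lay under the mock columns (log2 change -1.37, SE 0.11, adjusted p = 0.00365), and relative to the median gene it was 2.59-fold shorter. CUL4A, the member with the longest mock half-life, read 2548 and 2683 min without and 1708 and 2201 min with the siRNA (log2 change -0.63, SE 0.10, adjusted p = 0.0208). Its paralogue CUL4B, named after its values were seen, did not pass (log2 change 0.0072, SE 0.11, adjusted p = 0.981), with 1666 and 1664 min without and 1552 and 2362 min with the siRNA. KLHL8, a CUL3 adaptor, read 1096 and 1267 min without and 863 and 1014 min with the siRNA (log2 change -0.53, SE 0.10, adjusted p = 0.0371). In all 3 called E3 genes the siRNA columns lay below the mock columns also on the raw scale, although siRNA replicate 2 was long throughout.

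Both called protease genes lost stability. USP12, which acts in complex with WDR48, read 539 and 602 min without and 376 and 461 min with the siRNA (log2 change -0.65, SE 0.092, adjusted p = 0.0149), and the siRNA columns lay below the mock columns. USP22, the deubiquitinase of the SAGA coactivator complex, read 436 and 482 min without and 290.2 and 417 min with the siRNA (log2 change -0.59, SE 0.088, adjusted p = 0.0168), again without overlap. USP46, the closest paralogue of USP12 and also a WDR48 partner, read 566 and 714 min without and 448 and 643 min with the siRNA with overlapping columns on the raw scale, and missed the threshold (log2 change -0.44, SE 0.10, adjusted p = 0.0585). The largest upward differences among protease genes did not pass either: USP3, a histone H2A deubiquitinase, at 0.41 (adjusted p = 0.151), USP16 at 0.28 (adjusted p = 0.182) and USP1, which deubiquitinates FANCD2 and PCNA, at 0.24 (adjusted p = 0.155). USP3 was 0.20 without siRNA replicate 1 and 0.62 without siRNA replicate 2, where it passed (adjusted p = 0.0424), and USP16 was 0.18 without siRNA replicate 1.

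The 6 mRNAs that gained stability had half-lives between 128 and 829 min in mock columns. RNF4, a ligase that recognises SUMO chains, read 221 and 226 min without and 367 and 447 min with the siRNA (log2 change 0.66, SE 0.10, adjusted p = 0.0162), with the siRNA columns above the mock columns. RNF139 (TRC8), a ligase of the endoplasmic reticulum membrane, read 128 and 148 min without and 190.4 and 251 min with the siRNA (log2 change 0.47, SE 0.092, adjusted p = 0.0357). RNF138, a ligase that acts at DNA double-strand breaks, read 724 and 719.9 min without and 1045 and 1309.6 min with the siRNA (log2 change 0.50, SE 0.10, adjusted p = 0.0353). For these 3 RING ligases the siRNA replicate 2 value was the highest of the 4, as it was for the median gene.

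Adaptors and an E2 enzyme completed the group. FBXO8, an F-box protein with a Sec7 domain, read 215 and 221 min without and 289 and 427 min with the siRNA (log2 change 0.49, SE 0.10, adjusted p = 0.0357). KLHL12, the CUL3 adaptor for Dishevelled and the COPII coat protein SEC31, read 768 and 829 min without and 1026 and 1629 min with the siRNA (log2 change 0.50, SE 0.11, adjusted p = 0.0447), and its siRNA columns were the farthest apart of the 6. UBE2Z, the E2 that receives ubiquitin or FAT10 from UBA6, read 523 and 580.3 min without and 734 and 956 min with the siRNA (log2 change 0.41, SE 0.086, adjusted p = 0.0421). In each of them the lower siRNA column still exceeded the higher mock column.

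**Figure D3:**
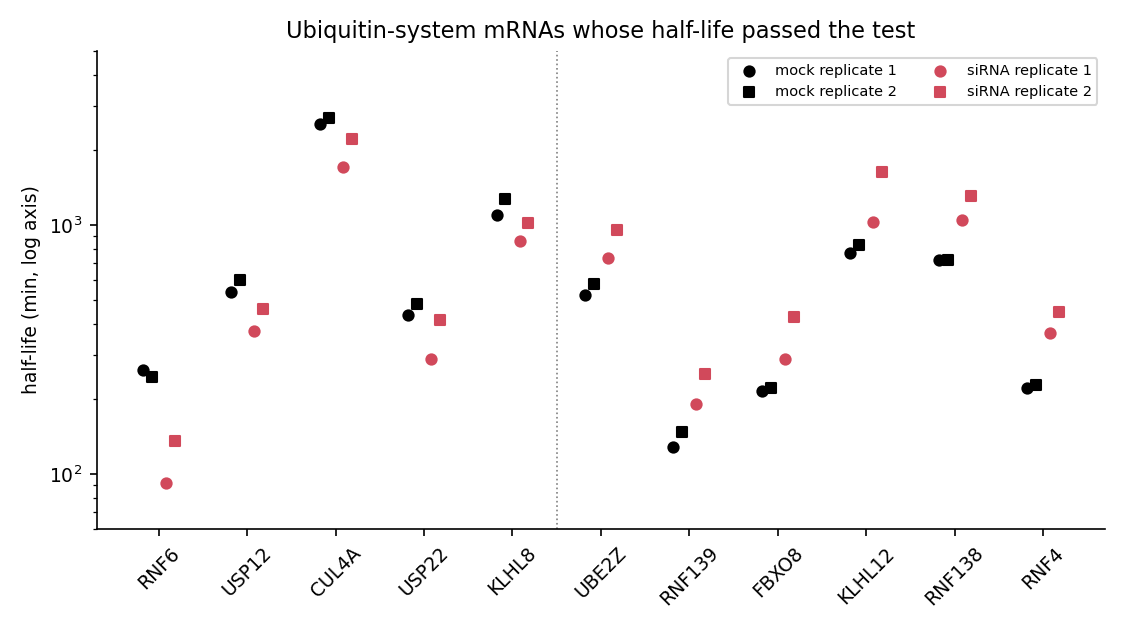
Half-life (min, log axis) of the 11 members that passed the half-life test, with each mock and siRNA column as a point. The siRNA points of RNF6 sit at 91.9 and 136 min, under its mock points, and in the 6 genes that rose both siRNA points lie above both mock points.

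Some of the largest differences did not pass the test and are given as values. FBXL15, the F-box protein for SMURF1, read 284 and 202 min without and 113 and 194 min with the siRNA (log2 change -0.89, SE 0.21, adjusted p = 0.0583). Among E2 genes with separate columns, UBE2Q2 differed by 0.36, and UBE2S, which elongates chains for the anaphase-promoting complex, UBE2G1 and UBE2R2, a CDC34 paralogue, by -0.30, -0.27 and -0.19 (adjusted p = 0.0982, 0.211, 0.249 and 0.262); the difference of UBE2R2 is 0.0050 without centring, so its sign depends on it. RNF149, a membrane-bound RING ligase, and RNF170, a ligase of the inositol trisphosphate receptor, differed by 0.58 and 0.54 (adjusted p = 0.0937 and 0.103). These values depend on single columns. FBXL15 ran from -0.58 without mock replicate 1 to -1.20 without mock replicate 2, where it passed (adjusted p = 0.0357), and it passed with recomputed half-lives (adjusted p = 0.0323). RNF149 ran from 0.32 without siRNA replicate 1 to 0.84 without siRNA replicate 2, where it passed (adjusted p = 0.0236), and RNF170 from 0.29 without mock replicate 2 to 0.80 without mock replicate 1. UBE2S ran from -0.14 without mock replicate 1 to -0.46 without mock replicate 2, and UBE2G1 from -0.10 without siRNA replicate 2 to -0.43 without siRNA replicate 1.

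Total RNA was called changed in more members than half-life was. More rose than fell with all columns, an order not kept without siRNA replicate 1. There the median log2 change was 0.034 for members and 0.012 for all tested genes. Total RNA fell in 16 members (10.7%, background 14.3%) and rose in 27 (18%, background 12.9%). By class, 4 E2 genes fell and 3 rose, 9 E3 genes fell and 20 rose (20.4%), and 3 protease genes fell and 4 rose. The split depends on the centring: without it 12 fell (8%) and 13 rose (8.67%), against 11.3% and 7.44% of all tested genes. With centring the median log2 change of members was 0.028 beside 0.011 for all tested genes. Columns did not overlap in 40 members that were lower (26.7%, background 30.2%) and 63 that were higher (42%, background 34.2%). Calls numbered 11 lower and 14 higher without mock replicate 2 and 9 lower and 14 higher without siRNA replicate 2.

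All 11 genes called in half-life were also called in total RNA, in the same direction; half-lives are computed from the same RNA values, so this is not separate evidence. Total RNA of RNF6 was 15.3 and 16.4 without and 7.6 and 6 with the siRNA (log2 change -1.10, SE 0.10, adjusted p = 3.9e-06), and CUL4A read 32.6 and 32.7 without and 20.7 and 17.9 with the siRNA (log2 change -0.71, SE 0.08, adjusted p = 2.67e-05). USP22 (-0.60), USP12 (-0.56) and KLHL8 (-0.43) fell as well, and these 5 kept their total RNA calls without any 1 column. RNF4 rose from 13.7 and 13.9 to 22.1 and 20.7 (log2 change 0.62, SE 0.077, adjusted p = 6.78e-05). In both directions the siRNA columns of these genes lay outside the mock columns.

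Several members changed in total RNA without a half-life call. Among E2 genes, UBE2G2 read 54.1 and 55.8 without and 40.1 and 40.4 with the siRNA (log2 change -0.42, SE 0.067, adjusted p = 0.000443), and its paralogue UBE2G1, which extends chains on cullin ligase substrates, read 21.7 and 22.7 without and 18 and 17.1 with the siRNA (log2 change -0.30, SE 0.074, adjusted p = 0.00819); columns were separate in both. UBE2D3 also fell (-0.24), whereas UBE2Z, which had a half-life call too, rose (0.33). UBE2W, at 15.9 and 14.6 without and 20.02 and 19.8 with the siRNA, rose by 0.38 (SE 0.083, adjusted p = 0.00409). The paralogues UBE2G1 and UBE2G2, set side by side after their values were seen, thus both fell.

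In the protease class USP28, a deubiquitinase of MYC, read 5.82 and 5.98 without and 8.34 and 8.34 with the siRNA (log2 change 0.46, SE 0.089, adjusted p = 0.002), and USP8, which acts on endosomes, read 11.9 and 11.8 without and 15.8 and 15.2 with the siRNA (log2 change 0.38, SE 0.08, adjusted p = 0.00358). RNF41 (Nrdp1), a ligase known to be stabilised by USP8, rose by 0.24 (adjusted p = 0.0251). USP53 rose by 0.30 and USP1 by 0.24, and USP46 fell (-0.35). In the E3 class RNF149 read 8.04 and 6.96 without and 11.6 and 10.3 with the siRNA (log2 change 0.52, SE 0.10, adjusted p = 0.00208), RNF141 rose by 0.46, and FBXL6 fell (-0.44). CUL1 and CUL5 rose by 0.23 and 0.28, while CUL2 and CUL4B did not pass (0.16 and -0.15). Some of these calls rest on single columns. USP1, RNF41, CUL1 and CUL5 lost the total RNA call without mock replicate 2 or either siRNA column (adjusted p up to 0.307). RNF141 and FBXL6 lost the total RNA call without mock replicate 2 (adjusted p up to 0.1). UBE2G1 lost the total RNA call without siRNA replicate 2 (adjusted p up to 0.104). UBE2Z lost the total RNA call without siRNA replicate 1 (adjusted p up to 0.0975). UBE2D3 lost the total RNA call without either siRNA column (adjusted p up to 0.158). USP46 lost the total RNA call without mock replicate 1 or siRNA replicate 2 (adjusted p up to 0.127). USP53 lost the total RNA call whichever column was left out (adjusted p up to 0.25).

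**Figure D4:**
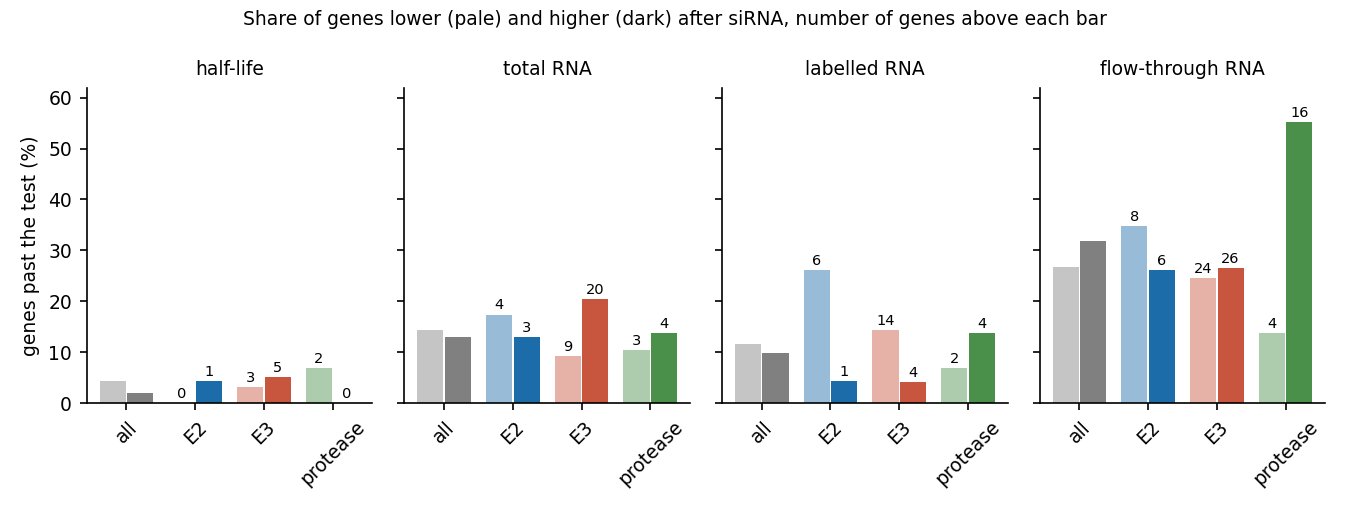
Share of tested genes (percent) called lower (pale bars) and higher (dark bars) in half-life and in each RNA fraction, for the 3 classes and all tested genes. The protease bar for flow-through RNA, 55.2% higher, is the tallest, beside 31.7% for all tested genes; without mock replicate 1 these shares are 24.1% and 21.5%.

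Labelled RNA, which was made during the pulse, fell more often than it rose in the E2 and E3 classes relative to the median gene. Without centring this order turned round. There 2 E2 genes were lower and 3 higher (8.7% and 13.0%), and 4 E3 genes lower and 18 higher (4.08% and 18.4%). The order turned round over all tested genes too, with 5.49% lower and 27.1% higher. Labelled RNA fell in 22 members (14.7%, background 11.5%) and rose in 9 (6%, background 9.88%). Without centring 6 members (4%) fell and 30 (20%) rose. The columns did not overlap in 53 members that were lower (35.3%, background 30.5%) and 45 that were higher (30.0%, background 31.8%). By class, 6 of 23 E2 genes fell and 1 rose, 14 of 98 E3 genes fell and 4 rose, and 2 of 29 protease genes fell and 4 rose. Median changes relative to the median gene were -0.11 for E2, -0.029 for E3 and 0.055 for protease genes. Without centring the E2 and E3 medians are 0.025 and 0.11, beside 0.14 for all tested genes, so their sign depends on the scaling. The E2 genes that fell included UBE2B (a RAD6 homologue), UBE2N and its partner UBE2V1, which together build signalling chains, and UBE2G1 and UBE2G2. Of these, the labelled calls of UBE2N, UBE2V1, UBE2G1 and UBE2G2 were lost without centring, and that of UBE2G2 also without the trend. UBE2V1 lost the labelled RNA call whichever column was left out (adjusted p up to 0.116). UBE2G1 lost the labelled RNA call without siRNA replicate 1 (adjusted p up to 0.107). UBE2G2 lost the labelled RNA call without either mock column or siRNA replicate 1 (adjusted p up to 0.196). Leaving out 1 column left 3 (siRNA replicate 1) to 6 E2 genes called lower; over all members, fallers numbered 10 without mock replicate 2, and risers 5 without mock replicate 2 or siRNA replicate 2.

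RNF130, a membrane-bound ligase related to Goliath, had the largest fall in labelled RNA among E3 genes, with 6.43 and 5.16 without and 4.25 and 4.04 with the siRNA (log2 change -0.53, SE 0.10, adjusted p = 0.00435). UBE2N and UBE2B fell too, by 0.36 and 0.43 on the log2 scale, and each of these 3 genes kept its call without any 1 column. The largest rise in that class was that of RNF20, the ligase that ubiquitinates histone H2B together with a RAD6 homologue, at 6.55 and 5.65 without and 9.89 and 10.1 with the siRNA (log2 change 0.50, SE 0.086, adjusted p = 0.00299). RNF8, a ligase of the DNA damage response that works with UBE2N, rose by 0.47, and UBE2T, the E2 of the Fanconi anaemia pathway, read 72.9 and 60.7 without and 96.5 and 99.4 with the siRNA (log2 change 0.42, SE 0.086, adjusted p = 0.00715). USP47, which deubiquitinates DNA polymerase beta, rose by 0.40 (adjusted p = 0.0111), with the call lost without siRNA replicate 2 (adjusted p up to 0.0508). The partner of RNF20 in its complex, RNF40, differed by 0.16 and did not pass (adjusted p = 0.162).

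In 4 members labelled RNA fell while total RNA rose, and in 0 members the reverse was called by limma in both fractions (0 at an unadjusted p, 0 without the trend). The 4 are 2.67% of the members, against 0.989% (60) of all tested genes. RNF139 read 38.2 and 35.2 without and 28 and 29.8 with the siRNA in labelled RNA (log2 change -0.47, SE 0.078, adjusted p = 0.00237) and 11.7 and 11.3 without and 14.8 and 13.6 with the siRNA in total RNA (log2 change 0.30, SE 0.084, adjusted p = 0.0176). RNF138 read 23.5 and 23.9 without and 19.2 and 20.8 with the siRNA in labelled RNA (log2 change -0.37, SE 0.082, adjusted p = 0.00946) and 32 and 29 without and 40.6 and 38.1 with the siRNA in total RNA (log2 change 0.38, SE 0.081, adjusted p = 0.00375). RNF11, a small RING protein of the A20 ubiquitin-editing complex, read 23 and 23 without and 17.9 and 19.7 with the siRNA in labelled RNA (log2 change -0.42, SE 0.082, adjusted p = 0.00566) and 20.4 and 20.8 without and 24.6 and 23.2 with the siRNA in total RNA (log2 change 0.22, SE 0.074, adjusted p = 0.0369). Without centring these 3 kept both directions, while the total RNA call of RNF11 and the labelled call of RNF138 were lost. Their labelled calls held without any 1 column, and so did the total RNA call of RNF138. RNF139 lost the total RNA call without mock replicate 2 or siRNA replicate 1 (adjusted p up to 0.2). RNF11 lost the total RNA call without mock replicate 2 or either siRNA column (adjusted p up to 0.319).

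Other members moved the same way in both fractions. Labelled and total RNA both fell in 8 (5.33%, background 3.81%; UBE2G1, UBE2G2, UBE2V1, RNF126, FBXW9, FBXL16, USP12 and USP46) and both rose in 3 (2%, background 1.91%; CUL1, USP8 and USP28). None of these 11 labelled calls held with each column left out in turn. RNF126 and FBXL16 lost the labelled RNA call without mock replicate 2 or siRNA replicate 2 (adjusted p up to 0.244). FBXW9 and USP8 lost the labelled RNA call without either mock column or siRNA replicate 2 (adjusted p up to 0.216). USP12 and CUL1 lost the labelled RNA call without mock replicate 2 or siRNA replicate 1 (adjusted p up to 0.116). USP46 and USP28 lost the labelled RNA call whichever column was left out (adjusted p up to 0.173). In total RNA the calls of UBE2G2, USP12, USP8 and USP28 held. RNF126 and FBXL16 lost the total RNA call without mock replicate 2 or siRNA replicate 1 (adjusted p up to 0.122). UBE2V1 lost the total RNA call without either siRNA column (adjusted p up to 0.195). FBXW9 lost the total RNA call without mock replicate 2 or either siRNA column (adjusted p up to 0.229). RNF6 and CUL4A, with the largest falls in total RNA, did not pass in labelled RNA (-0.11, adjusted p = 0.434, and 0.063, adjusted p = 0.647), and RNF4 did not either (0.079, adjusted p = 0.496). Of the 11 genes called in half-life, 3 fell in labelled RNA (USP12, RNF138 and RNF139) and 8 were not called. Across the 150 members, which are not independent replicates, the Pearson correlation of the half-life change was 0.783 with the total RNA change and -0.0869 with the labelled RNA change, and that of total with labelled change was 0.221; half-life and RNA values share libraries.

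**Figure D5:**
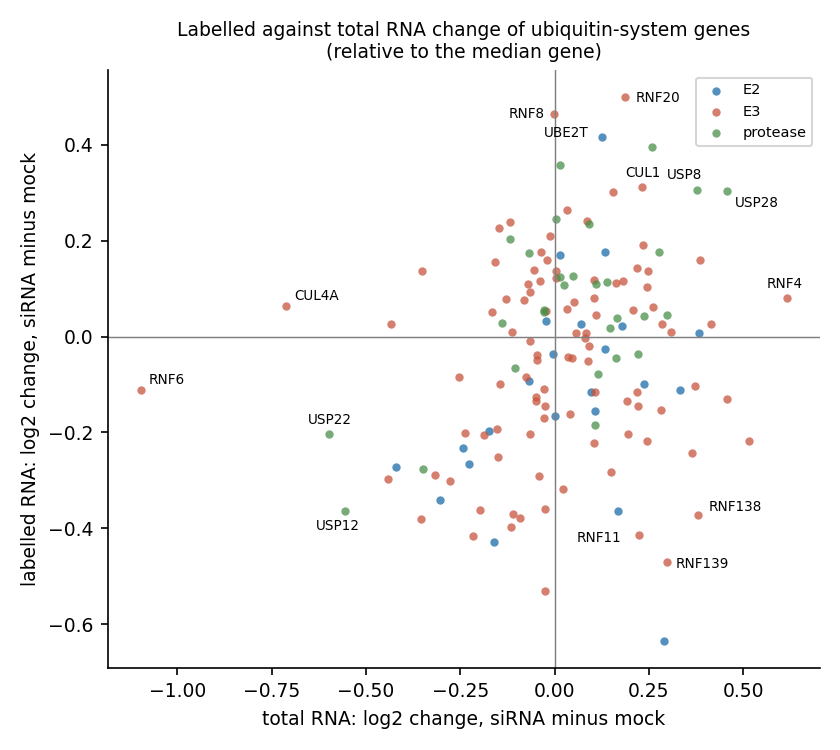
log2 change in labelled RNA against log2 change in total RNA (siRNA minus mock, relative to the median gene) for the 150 tested members, coloured by class. RNF11, RNF138 and RNF139 lie in the lower right, RNF6 at -1.10 and CUL4A at -0.71 far to the left at little labelled change.

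In flow-through RNA, most of which was made before the pulse, more protease genes rose than fell. Flow-through RNA fell in 36 members (24%, background 26.8%) and rose in 48 (32%, background 31.7%), so its shares lie near the background. Columns did not overlap in 48 members that were lower (32%, background 36.7%) and 69 that were higher (46%, background 44.5%). By class, 8 E2 genes fell and 6 rose, 24 E3 genes fell and 26 rose, and 4 protease genes fell while 16 of 29 (55.2%) rose, with a median log2 change of 0.18 beside 0.034 for all tested genes; the 16 include USP6NL and USP39. The protease count was 7 without mock replicate 1 (24.1% against 21.5% of all tested genes), 11 without mock replicate 2, 10 without siRNA replicate 1, 11 without siRNA replicate 2 and 12 without centring. Of the 16, 4 also rose in total RNA and 0 in half-life by limma.

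USP8 led the protease class, with flow-through values of 15.3 and 14.7 without and 24 and 22.7 with the siRNA (log2 change 0.62, SE 0.057, adjusted p = 0.000516). USP28 (0.53), USP16 (0.41), USP37 (0.40), USP3 (0.34) and USP1 (0.32) rose and kept the call without any 1 column. USP12 fell most in that class, with 10.8 and 11.2 without and 5.37 and 5.43 with the siRNA (log2 change -0.89, SE 0.065, adjusted p = 0.000289), followed by USP22 (-0.76), USP46 (-0.59) and USP38 (-0.34). The extremes of the E3 class were again RNF6, with 16.9 and 16.9 without and 4.79 and 6.13 with the siRNA (log2 change -1.46, SE 0.10, adjusted p = 0.000269), and RNF4, with 16.3 and 14.8 without and 27.8 and 25.9 with the siRNA (log2 change 0.77, SE 0.067, adjusted p = 0.000438). In the E2 class UBE2G1 fell most, with 29.8 and 31.6 without and 21.6 and 19.4 with the siRNA (log2 change -0.55, SE 0.072, adjusted p = 0.00156), and UBE2T rose most (0.36, adjusted p = 0.00117). The siRNA columns lay outside the mock columns in all genes given here by column.

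The FBXL family, F-box proteins with leucine-rich repeats, fell in flow-through RNA more often than it rose; this family was singled out after its values were seen. By limma 6 of 11 (54.5%, background 26.8%) fell and 0 rose (0 at an unadjusted p, 0 without the trend; without siRNA replicate 1, 5 fell and 1 rose). FBXL15 read 16 and 12.5 without and 4.92 and 5.37 with the siRNA (log2 change -1.28, SE 0.11, adjusted p = 0.000462), the largest fall in the family, and FBXL16 (-0.62), FBXL6 (-0.60), FBXL21 (-0.37) and FBXL19 (-0.36) fell as well, though FBXL21 lost its call without mock replicate 2 or siRNA replicate 1 (adjusted p up to 0.142). In labelled RNA 4 of the 11 (36.4%, background 11.5%) fell (FBXL15, FBXL16, FBXL21 and FBXL12) and 0 rose (0 at an unadjusted p, 0 without the trend; 0 lower and 1 higher without centring), but 0 were lower without mock replicate 2 and 0 without siRNA replicate 2. In total RNA 3 (27.3%, background 14.3%) fell (FBXL6, FBXL16 and FBXL19) and FBXL14 rose (0.28), but 0 were lower without mock replicate 2. FBXL19 lost the total RNA call whichever column was left out (adjusted p up to 0.299). FBXL14 lost the total RNA call without mock replicate 1 or either siRNA column (adjusted p up to 0.115). FBXL16 lost the total RNA call without mock replicate 2 or siRNA replicate 1 (adjusted p up to 0.122). FBXL6 lost the total RNA call without mock replicate 2 (adjusted p up to 0.1). Of the cullins, CUL1, CUL2 and CUL5 rose in flow-through RNA by 0.47, 0.26 and 0.29, CUL4A fell (-0.50), and CUL4B did not pass (-0.13).

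The sites printed above were counted over all members. Among the 23 members that carry TACTGCA, half-life fell in 2 (RNF6 and KLHL8) and rose in 0 by limma (3 at an unadjusted p, 0 without the trend), against 14.6% lower and 0.602% higher over all tested carriers. Among the 125 members without the sequence, 3 fell (CUL4A, USP12 and USP22) and 6 rose, against backgrounds of 3.08% and 1.96%. The median half-life change was -0.0094 in carrier members and 0.019 in the others. In total RNA 5 carriers fell (RNF6, KLHL8, UBE2G1, UBE2G2 and UBE2D3) and 4 rose (RNF11, RNF41, USP8 and UBE2W), against 27.5% and 9.77% of all tested carriers. Among E2 genes 3 of the 4 that fell in total RNA carried it, while UBE2V1 did not. Over all tested genes with a 3′ UTR, 183 that fell in total RNA carried it and 634 did not. In half-life 0 of the 6 E2 carriers were called lower. Their median half-life change was 0.038, beside 0.028 in E2 genes without the sequence.

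The 41 members under the minimum (36 E3, 5 protease and 0 E2 genes) were not tested. Of these, 37 were under it in both conditions. RNF157, RNF111 and KLHL2 were under it only after the siRNA, with mean total RNA values of 9.16 in mock and 4.27 after the siRNA for RNF157, 6.13 and 4.33 for RNF111, a ligase that recognises SUMO, and 5.52 and 4.04 for KLHL2. TRIM56 was under it only in mock (4.79, and 5.08 after the siRNA). The minimum thus left out RNF157, whose mean was lower after the siRNA in total RNA and which is given as a value only.

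The rest of the pathway was taken from 6 lists of other ubiquitin and SUMO genes, of which 107 were tested. The lists were written with earlier results of these data known, so a share above background is no independent evidence. Half-life fell in 10 of the 107 (9.35%, background 4.27%) and rose in 0 by limma (10 at an unadjusted p, 0 without the trend), with a median change of 0.0063. Whether these 10 calls hold with a column left out is not given here. Without centring 5 of all 6064 tested genes were called lower in half-life and 2 higher. Among partners of cullin ligases and the COP9 signalosome, which removes NEDD8 from cullins, 3 of 21 fell: KEAP1 (-0.84, adjusted p = 0.0068), the CUL3 adaptor for NRF2, and the signalosome subunits COPS3 (-0.77, adjusted p = 0.0109) and COPS2 (-0.57, adjusted p = 0.0168). Among HECT and U-box ligases 2 of 19 fell, HECTD2 (-0.79, adjusted p = 0.00846) and ITCH (-0.51, adjusted p = 0.0269). Among other RING ligases 3 of 30 fell, among them RNFT1 (-0.81, adjusted p = 0.0338) and PJA1 (-0.53, adjusted p = 0.0403). In the anaphase-promoting complex 1 of 8 fell, its RING subunit ANAPC11 (-0.41, adjusted p = 0.0443). Of the 18 genes listed as proteases outside the USP family 1 fell, the SUMO protease SENP3 (-0.58, adjusted p = 0.0208). That list also holds other SUMO proteases and PAN2, which is not a protease. Among 11 genes for ubiquitin and E1 enzymes none fell or rose in half-life by limma (0 lower and 0 higher at an unadjusted p, 0 and 0 without the trend). Other measures of these 11 did hold calls. In flow-through RNA 7 rose (63.6%, background 31.7%) and 0 fell by limma (0 at an unadjusted p, 0 without the trend). In labelled RNA 4 rose (36.4%, background 9.88%) and 1 fell (9.09%, background 11.5%). In total RNA 1 fell (9.09%, background 14.3%) and 0 rose (1 at an unadjusted p, 0 without the trend). In total RNA 19 of the 107 fell (17.8%, background 14.3%) and 18 rose (16.8%, background 12.9%).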

How the data were processed

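The authors' deposited table holds normalised expression signal per gene for total, labelled and flow-through RNA (2 mock and 2 siRNA columns each; the unit and the tool behind it are not given in the sources used here, and a further scaling by the authors cannot be seen) and mRNA half-lives, computed by the authors after Schwanhausser and colleagues per the labels' protocols. Reads were aligned with TopHat2 2.06 to hg18 per the submitters' processing notes. The time unit of the half-lives is not written in the table: half-lives recomputed from the RNA values and the 60 min pulse (fractions rescaled by total least squares, first-order decay) gave Pearson correlations on the log2 scale of 0.968 to 0.983 with the deposited ones and column medians of 504 to 583 min against 657 to 900.0, so minutes are used and absolute values are less certain than changes.

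Changes are siRNA minus mock, by limma 3.58.1 (R 4.3.3; moderated, with a trend in the variance) on log2 half-life or log2(value + 1), which understates the change of low genes, each column centred on its median gene, over genes whose total RNA averaged 5 or more in each condition. Benjamini-Hochberg adjustment ran over all 6064 genes, with calls at an adjusted p under 0.05, 2 columns against 2. The design assumed normalised values without a named unit, as found. On simulated data over 6064 genes, the half-life test recovered 76% of changes of 1 log2 and 28% of 0.5 log2, and the total RNA test 94% and 64%. Named were all members called in half-life, per class the 3 largest half-life and total RNA changes each way, the 2 shortest and longest mock half-lives, and the largest labelled and flow-through changes each way; carriers, paralogues and families outside this rule were named after their values were seen. Results of some single genes are not reported here, though counts and medians include them. The members and lists were chosen with earlier results of these data known. UTRs are from GENCODE 29 (GRCh38), matched by symbol, not from the authors' hg18 annotation. Alternatives were no minimum or one of 20, other pseudocounts, no centring, no trend, a replicate block, recomputed half-lives and leaving out each column.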

Additional observations from a re-analysis of the deposited data

Results flagged for a closer look

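In RNF11, RNF139 and RNF138 labelled and total RNA were called in opposite directions under the same siRNA. The difference was fitted by limma with an interaction term over the 8 labelled and total columns, adjusted over all 6064 genes; this test was added after seeing the data, and the genes were chosen because their calls already went opposite ways in these columns, so the values describe the size of the difference and add no support to it. Labelled minus total log2 change was -0.64, SE 0.10, adjusted p = 0.00214 for RNF11. For RNF139 it was -0.77, SE 0.10, adjusted p = 0.001. For RNF138 it was -0.75, SE 0.12, adjusted p = 0.00205. Each column was centred on its median gene before this fit. Centring removes a shift common to all genes of a column, whether it came from scaling or from a real change. Without centring the labelled changes of all genes move by 0.14. The cause was not tested.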

How the results depend on the processing

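Counts of members called depended most on the centring, on the minimum and on single columns. In half-life they were 0 lower and 0 higher without centring (all genes 0.0825% and 0.033%). With no minimum they were 6 lower and 2 higher (3.14% and 1.05%, all genes 2.88% and 1.04%). With a minimum of 20, which leaves 52 members, they were 1 lower and 2 higher (1.92% and 3.85%, all genes 3.61% and 2.42%). Recomputed half-lives gave 7 lower and 10 higher (4.67% and 6.67%, all genes 4.91% and 3.13%). Without centring, total RNA gave 12 lower and 13 higher (8% and 8.67%, all genes 11.3% and 7.44%). Labelled RNA gave 6 and 30 (4% and 20%, all genes 5.49% and 27.1%), and flow-through RNA 37 and 44 (24.7% and 29.3%, all genes 28.1% and 29.1%). With a minimum of 20, total RNA gave 6 lower and 8 higher (11.5% and 15.4%, all genes 11.9% and 13.6%). Labelled RNA gave 11 and 2 (21.2% and 3.85%, all genes 12.3% and 9.68%), and flow-through RNA 13 and 16 (25% and 30.8%, all genes 28.6% and 35.5%). Leaving out 1 column gave 1 to 3 lower and 0 to 3 higher in half-life, 9 to 19 lower and 9 to 25 higher in total RNA, 10 to 23 lower and 5 to 9 higher in labelled RNA and 29 to 36 lower and 30 to 45 higher in flow-through RNA; 1 of 11, 13 of 43, 12 of 31 and 54 of 84 calls were kept in all 4 cases. Class medians of the half-life change were 0.23 (E2), 0.21 (E3) and 0.19 (protease) without centring, the protease median was 0.038 with a minimum of 20, and it ran from -0.0074 to 0.035 with 1 column left out. The median mock half-life of E3 genes was 558 min with no minimum and 741 min with a minimum of 20, and that of protease genes 641 and 951 min, and 686 to 714 min with 1 mock column. The half-life difference of UBE2R2 turned to 0.0050 without centring. The cause of these shifts was not tested. The replicate numbers were not used to pair the columns in the main fits. Over the tested genes, same-numbered deviations correlated at -0.069 in half-life, 0.046 in total RNA, -0.037 in labelled RNA and 0.11 in flow-through RNA. With 2 columns a group these values cannot decide whether the columns were paired. With the replicate block, calls numbered 2 lower and 2 higher in half-life (among them RNF6, USP12 and RNF4), 20 lower and 34 higher in total RNA, 26 lower and 12 higher in labelled RNA and 35 lower and 48 higher in flow-through RNA. Other pseudocounts and limma without the trend left each of these counts within 1.5 times. Depth is unknown, and 2 columns a group limit every test.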
